A study of Drosophila melanogaster with 12 samples.

Results

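The 48 genes described here encode nuclear parts of respiratory complexes II, III, IV and V in guts of Drosophila melanogaster. They were chosen as the gene rows whose FlyBase symbol starts with Sdh, UQCR, COX or ATPsyn in exactly that spelling, without the genes of the mitochondrial chromosome. They make up 48 of the 16524 rows of the pharate gene table, and all 48 also stood in the adult table. Of these, 30 symbols do not end in L and are called core genes below: 4 subunits of complex II and its assembly factor Sdhaf3, 6 subunits of complex III, 8 of complex IV and 11 of complex V. The other 18 symbols end in L, in 2 cases followed by a digit, and are listed by the rule as testis-biased paralogs: 3 for complex II, 3 for complex III, 8 for complex IV and 4 for complex V. Subunits with other kinds of names, such as the Rieske protein RFeSP, cytochrome c1 (Cyt-c1), the ATP synthase alpha subunit blw and its epsilon subunit sun, fall outside the rule and are given as neighbours only.

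Complex II is succinate dehydrogenase, the enzyme that the citric acid cycle shares with the respiratory chain. Complexes III and IV pass electrons by way of cytochrome c to oxygen and pump protons, and complex V, the ATP synthase, lets the protons return and makes ATP. Many of these subunits have a duplicate gene in Drosophila that is used mainly in the male germ line, where mitochondria fuse into a large body during sperm formation.

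The series compared male guts with and without function of Hinfp, an X-linked zinc finger gene whose vertebrate counterpart acts on histone genes. The pharate set (adults formed but still in the pupal case, gut with Malpighian tubules) comprised FRT19A and W1118 flies as controls and the alleles Hinfp3 (PointMut) and Hinfp2 (DelMut), with 2 libraries for each of these 4 groups. The adult set (intestine) held 1 library each of Y/FRT19A, of Y/Hinfp2, and of Y/Hinfp2 with tub-Gal4 driving UAS-Hinfp-HA (Hinfp rescue) or UAS-His1-HA (His1 rescue), tub-Gal4 being a driver active in most tissues. Each sample pooled about 50 guts of males kept at 25 °C, so no value belongs to 1 animal. The design text gives controls as 5 to 6 days old and mutants and rescues as 8 to 9 days old, so age and genotype cannot be told apart between mutants and controls, while rescues and mutants share an age.

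Within each pharate group, replicate 1 was titled SE and replicate 2 PE, tags that the labels do not spell out. The labels do not state whether replicates are separate cultures. The p-values therefore rest on library-to-library spread alone, and that spread may be technical. Gene counts per library ran from 21924226 to 28740669 in the pharate set and from 17991664 to 20271512 in the adult set. Levels below are CPM, counts scaled to library size with TMM factors, given in the order SE, PE. Hinfp itself stood at 9.83 and 15.3 CPM in FRT19A, 11.4 and 17.1 in W1118, 8.16 and 9.66 in PointMut and 5.85 and 5.71 in DelMut, and every mutant library was below every control library (log2 fold change -0.87 ± 0.27, edgeR adjusted p = 0.0837). In the adult set Hinfp stood at 12.6 CPM in the control, 4.71 in Hinfp2, 1664 in the Hinfp rescue and 6.42 in the His1 rescue. A list of 16 enterocyte and tubule markers was detected in each of the 12 libraries, with summed levels of 2295 to 9891 CPM in the pharate and 9639 to 28460 CPM in the adult libraries. Of these 16, 5 rose in the pharate mutants (4.59% of all genes tested were called higher): Uro (4.36), Amy-d (2.08), Oatp58Db (1.685), Amy-p (1.61) and Myo31DF (0.62). Another 3 fell (6.34% of all genes were called lower): zetaTry (-1.82), LManI (-1.82) and Irk3 (-1.63). The part of these 16 markers in the core gene changes was not tested. In whole guts, fewer cells of a type and less RNA per cell cannot be told apart.

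The 4 mutant and 4 control pharate libraries were compared to ask which respiratory genes change when Hinfp is mutated. The core genes of all 4 complexes were lower in the mutants: 13 of the 30 fell and 0 rose (edgeR quasi-likelihood test, Benjamini-Hochberg adjusted p below 0.05 over 13244 genes), against a background of 6.34% of all tested genes called lower. All 48 genes passed the filter on low counts. The median log2 fold change was -0.74 over the core genes and -0.01 over all genes tested, and all 30 core estimates were negative, from -1.27 to -0.21. Every mutant library was below every control library for 15 of the 30, against 12.2% of all genes. The calls covered 3 of 5 genes of complex II, 2 of 6 of complex III, 2 of 8 of complex IV and 6 of 11 of complex V. With the SE or PE tag as a replicate block, 28 of the 30 core genes were called lower, all but SdhB and COX5B, where 19.2% of all genes were called lower, and these included all 13 of the unblocked fit. The unblocked count was 5 without FRT19A replicate 1 or 2, W1118 replicate 2 or PointMut replicate 1, 4 without DelMut replicate 1, 3 without PointMut replicate 2 or DelMut replicate 2, and 16 without W1118 replicate 1. Over all genes, 13673 to 13806 tested, the same fits called 195 to 518 lower, and 1146 without W1118 replicate 1. The full fit called 840 of 13244 lower. Calls of SdhC, ATPsynB and ATPsyndelta held under each of the 8 omissions. COX8 lost its call under 3 of them and ATPsynE under 2 (PointMut replicate 2 and DelMut replicate 2), and the other 8 genes under each of the 7 besides W1118 replicate 1.

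**Figure D1:**
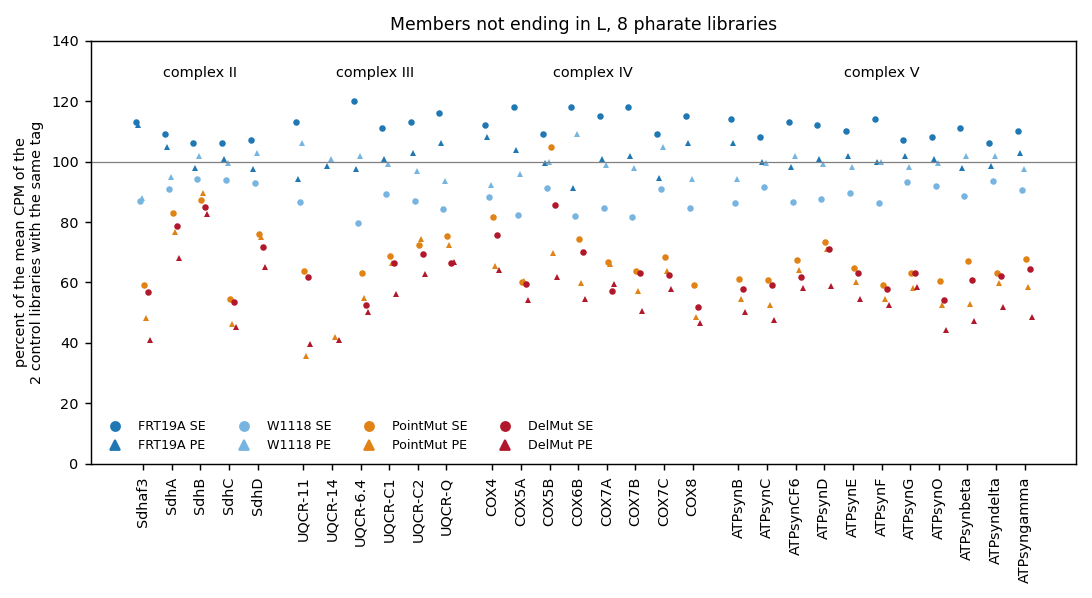
CPM of the 30 core genes in each of the 8 pharate libraries, as a percent of the mean of the 2 control libraries with the same tag (circles SE, triangles PE; blue controls, orange PointMut, red DelMut), grouped by complex. Mutant libraries lie below both controls of their tag except PointMut SE for COX5B, and UQCR-14, at 0 in all SE libraries, has PE points only; the median over genes is 66.9% and 59.8% in PointMut and 62.6% and 54.4% in DelMut (SE, PE).

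In complex II, the membrane anchor genes SdhC and SdhD and the assembly factor Sdhaf3 fell, while the flavoprotein gene SdhA and the iron-sulfur gene SdhB did not pass the test. SdhC (FBgn0037873, BDGP6 chromosome 3R, 11208887 to 11209849, minus strand) stood at 151 and 191 CPM in FRT19A, 134 and 189 in W1118, 77.4 and 88.0 in PointMut and 76.3 and 85.9 in DelMut. All 4 mutant libraries lay well under the lowest control, and the 2 alleles were close to each other. The fitted change was -1.02 ± 0.15 (standard error, log2; edgeR adjusted p = 0.00882). Sdhaf3, which in other organisms helps to mature the iron-sulfur subunit, had 11.6 and 13.5 CPM in FRT19A, 8.90 and 10.5 in W1118, 6.06 and 5.80 in PointMut and 5.82 and 4.92 in DelMut. Again no mutant library reached the lowest control, and the change was -0.98 ± 0.20 (edgeR adjusted p = 0.0229). SdhD changed by -0.47 ± 0.11 (edgeR adjusted p = 0.0322).

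SdhA stood at 449 and 676 CPM in FRT19A, 374 and 610.1 in W1118, 342 and 493 in PointMut and 324 and 438 in DelMut. Its mutant and control libraries overlap only across tags: within SE and within PE both mutants were below both controls. Its change was -0.40 ± 0.24 (edgeR adjusted p = 0.353; with the replicate block -0.39, adjusted p = 0.0269). SdhB had the smallest change of the core genes, -0.21 ± 0.10 (edgeR adjusted p = 0.227), from 167 ± 8.48 CPM in controls to 144 ± 4.94 in mutants (mean ± SD, n = 4 each).

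In complex III, the core protein genes UQCR-C1 and UQCR-C2 fell. UQCR-C1 (FBgn0038271, chromosome 3R, 14890231 to 14892387, plus strand) stood at 653 and 622 CPM in FRT19A, 528 and 613 in W1118, 407 and 411 in PointMut and 392 and 348 in DelMut. All 4 mutant libraries were below the lowest control, and the change was -0.63 ± 0.13 (edgeR adjusted p = 0.0251). UQCR-C2 changed by -0.52 ± 0.13 (edgeR adjusted p = 0.0384), from 259 ± 28.1 CPM in controls to 180.1 ± 12.9 in mutants (mean ± SD, n = 4 each). UQCR-Q, a small membrane subunit, had the change nearest 0 in this complex, -0.50 ± 0.35 (edgeR adjusted p = 0.433), and its level followed the tag: 242 and 120 CPM in FRT19A, 177 and 105 in W1118, 158 and 81.6 in PointMut and 139.5 and 75.0 in DelMut.

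The small subunit genes UQCR-11 and UQCR-14, named after their values were seen, had the largest negative estimates of the core genes but differed strongly between tags. UQCR-11 stood at 112 and 307 CPM in FRT19A, 85.5 and 345 in W1118, 63.0 and 116 in PointMut and 61.1 and 129 in DelMut, so the mutants were at 62.9% of controls in SE and 37.5% in PE. UQCR-14 (FBgn0030733, chromosome X, 16286288 to 16286988, plus strand) was listed at 0 in all 4 SE libraries. In PE it stood at 380.2 CPM in FRT19A, 390.3 in W1118, 162 in PointMut and 158 in DelMut. All of its exonic bases (100% of 523) lie on exons of CG32576 on the opposite strand, and whether the counting used strand is not given in the sources used here. Overlap was partial for other core genes, with 40.5% of exonic bases of UQCR-6.4 on an opposite-strand exon, 35.6% of ATPsyndelta, 15.7% of COX7C, 13.9% of SdhD and 10.6% of SdhB, so counts of these genes carry that uncertainty.

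In complex IV, COX8 and COX7B fell, and the other 6 core subunits had estimates of -0.34 to -0.76 that did not pass the test. COX8 (FBgn0263911, chromosome 3L, 21538859 to 21539447, minus strand) stood at 197 and 156 CPM in FRT19A, 145 and 139 in W1118, 101.5 and 71.5 in PointMut and 88.9 and 68.6 in DelMut. Each mutant library was below each control library, by -0.95 ± 0.18 on the log2 scale (edgeR adjusted p = 0.0184; without PointMut replicate 2, DelMut replicate 1 or DelMut replicate 2 it was 0.0523 to 0.0647). COX7B had 307 and 383 CPM in FRT19A, 212 and 366 in W1118, 166 and 214 in PointMut and 164 and 189.6 in DelMut. Its PointMut PE library slightly exceeded the lowest control, W1118 SE, and the change was -0.79 ± 0.21 (edgeR adjusted p = 0.0492, not called when any library but W1118 replicate 1 was left out).

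COX5B was the complex IV gene with the smallest estimate. It stood at 256 and 284 CPM in FRT19A, 215 and 285 in W1118, 247 and 198 in PointMut and 201.5 and 176 in DelMut, and the change was -0.34 ± 0.16 (edgeR adjusted p = 0.216). In SE the mutants were at 95.1% of controls and the groups overlapped, whereas in PE they were at 65.8% and did not. The difference between those effects was not called (-0.53 ± 0.22, edgeR adjusted p = 0.311).

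In complex V, which has the most core genes, 6 of 11 fell, and all 11 estimates lay between -0.55 and -0.96. The calls came from the membrane ring (ATPsynC), the peripheral stalk (ATPsynB and ATPsynCF6), the small membrane subunits (ATPsynE and ATPsynF) and the central stalk (ATPsyndelta). ATPsyndelta (FBgn0028342, chromosome X, 10212970 to 10217393, plus strand) stood at 319 and 297 CPM in FRT19A, 282 and 306 in W1118, 189.6 and 180.4 in PointMut and 187 and 157 in DelMut. Controls and mutants formed separate ranges, with a change of -0.76 ± 0.12 (edgeR adjusted p = 0.00973). ATPsynB had 430.4 and 406 CPM in FRT19A, 326 and 362 in W1118, 232 and 210.1 in PointMut and 219 and 193 in DelMut, again without overlap (-0.84 ± 0.14, edgeR adjusted p = 0.0116).

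ATPsynC, which encodes the proton-carrying ring, was the most abundant of all 48 transcripts per length. It stood at 3777 and 3527 CPM in FRT19A, 3194 and 3497 in W1118, 2122 and 1842 in PointMut and 2062 and 1676 in DelMut. Each mutant library was far below the lowest control, and the change was -0.86 ± 0.19 (edgeR adjusted p = 0.0288; lost when any library but W1118 replicate 1 was left out, 0.0624 to 0.107). ATPsynCF6, ATPsynE and ATPsynF changed by -0.67, -0.72 and -0.83. ATPsynD, a peripheral stalk gene, had the smallest estimate of the complex (-0.55 ± 0.16, edgeR adjusted p = 0.0672), with 388 and 438 CPM in FRT19A, 302 and 431 in W1118, 253 and 309 in PointMut and 245 and 255 in DelMut. Its PointMut PE library was above the W1118 SE library. The catalytic beta gene ATPsynbeta, the stalk gene ATPsyngamma and ATPsynO, which tops the peripheral stalk, had estimates of -0.86, -0.78 and -0.96 and did not pass the unblocked test; with the replicate block all 11 genes of the complex were called lower.

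In a fit that keeps the tags apart, the core genes had negative mutant effects in both SE and PE. The effect was called lower for 9 of 30 core genes in SE, against 5.23% of all genes, and for 27 in PE, against 14.5% of all genes. The 9 SE calls rest on a spread estimated over both tags, a setting chosen after seeing the data: in a fit of the 4 SE libraries alone edgeR called 0 core genes and 0.0% of 12474 genes. The median over the core genes was -0.64 in SE and -0.81 in PE. Of the core genes 0 were called different between the tags by edgeR, and 1, UQCR-11, had an unadjusted p below 0.05 (difference -0.75 ± 0.23, adjusted p = 0.142), which does not show that the effects are equal. In the other direction 0 were called higher in SE (4.9% of all genes were). Mutants were below both controls of their tag for 28 of 30 core genes in SE (29.2% of all genes) and for 30 of 30 in PE (36.3% of all genes). The median level in mutants was 64.0% of controls in SE, ranging from 54.0% to 95.1%, and 57.2% in PE, ranging from 37.5% to 86.1%. By complex, the medians in SE and PE were 73.9% and 70.0% for complex II, 67.6% and 57.0% for complex III, 64.5% and 59.1% for complex IV and 63.1% and 53.6% for complex V.

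**Figure D2:**
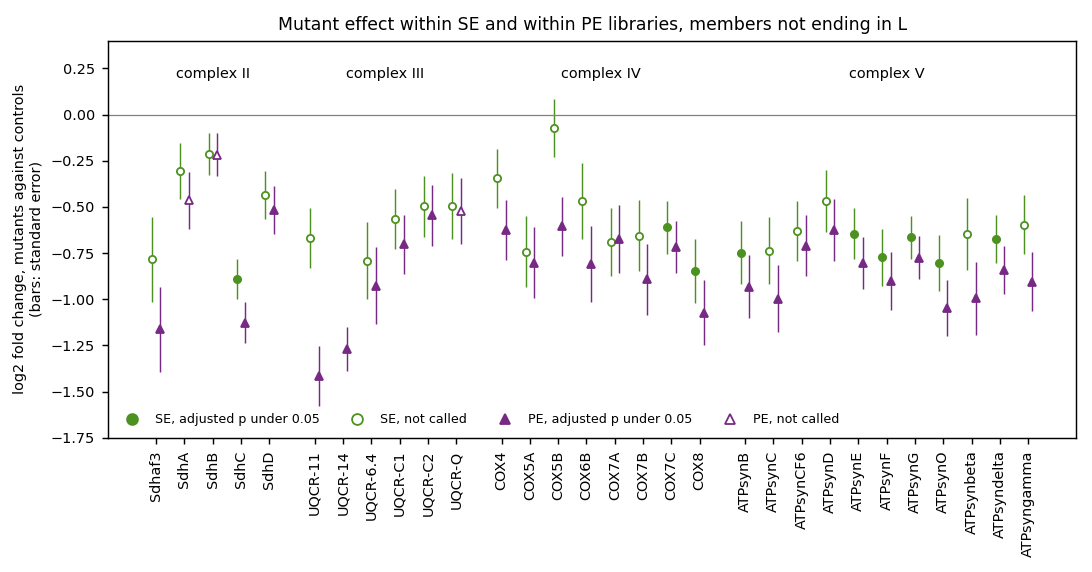
Fitted log2 fold change of mutants against controls for the 30 core genes within SE (green circles) and within PE libraries (purple triangles), with standard errors, filled where called. The points of both tags lie below 0 for each gene with a value, 9 are filled in SE and 27 in PE, and UQCR-11 and UQCR-14 have the lowest PE estimates.

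The alleles were also compared with FRT19A and with each other. In the fit of 4 groups edgeR called 0 of the 48 genes in DelMut or PointMut against FRT19A (0% of all genes), with 14 and 12 core genes lower at an unadjusted p below 0.05 (8.44% and 7.61% of all genes were). DESeq2 called 10 and 8 core genes lower (3.97% and 3.4% of all genes), and with the replicate block edgeR called 23 and 12 (7.26% and 5.01% of all genes). The medians over the core genes were -0.88 for DelMut and -0.77 for PointMut. These comparisons share the FRT19A libraries. In the comparison of DelMut with PointMut, which shares none, edgeR, the block and DESeq2 each called 0 of the 48 genes and none had an unadjusted p below 0.05; the core median was -0.13, with values from -0.24 to 0.08. W1118 against FRT19A also gave 0 calls by each method, with a core median of -0.16. Within SE, the core genes in W1118 were at a median of 88.4% and in FRT19A of 112% of the mean of both. In PE the medians were 99.3% and 101%. With 1 library per strain and tag, a strain difference and a library difference cannot be told apart. The scaling also matters: with library totals alone, the core median of W1118 against FRT19A was -0.004 (0.148 over all genes). With TMM it was -0.16 (-0.027 over all genes).

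The same comparison was read for other mitochondrial gene groups. Unlike the core genes, these lists were not split by paralog, so their counts and medians are not directly comparable with those of the core genes. Of 39 nuclear complex I genes (symbols starting ND-), 16 fell and 1 rose, with a median of -0.69. Estimates were negative for 32 and positive for 7. The gene that rose was ND-51L1 (0.87, edgeR adjusted p = 0.0429), whose symbol ends in L and a digit. Of 20 citric acid cycle genes, 7 fell and 0 rose, with a median of -0.61; among them were Pdha (-0.85), a subunit of pyruvate dehydrogenase, and Fum1 (-0.74), a fumarase. Of 16 respiratory chain genes outside the naming rule, 4 fell and 0 rose: Bcs1 (-1.17), which in yeast inserts the Rieske protein into complex III, Cox10 (-0.59), which acts in heme a synthesis for complex IV, RFeSP (-0.61) and sun (-0.93). Of 6 regulators of mitochondrial gene expression and replication, 1 fell, TFAM (-0.91, edgeR adjusted p = 0.00751), which packages and helps transcribe mitochondrial DNA. The vacuolar proton pump, a rotary ATPase of similar build in other membranes, had 0 of 30 genes called in either direction by edgeR (0 lower and 2 higher at an unadjusted p below 0.05) and a median of -0.10. Its 30 estimates, 18 negative and 12 positive, ran from -0.74 to 1.29, so that median is not like for like with the core median. Visceral muscle contractile genes, from a mitochondria-rich cell layer around the gut, had 0 of 14 called by edgeR (4 lower and 0 higher at an unadjusted p below 0.05) and a median of -0.38; their summed level was 16660 to 18290 CPM in controls, 12320 and 12290 in PointMut and 15170 and 15510 in DelMut, and their part in the fall of the core genes was not tested.

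Levels between genes were compared per length in the authors' TPM. Over the 4 control libraries the median TPM of the 29 core subunits spanned 22.8-fold, from 127 for ATPsyndelta to 2899 for ATPsynC, and Sdhaf3 lay lower still at 40.2. The low place of ATPsyndelta depends on its annotated length of 3817 exonic bases. Its control mean of 301 CPM was near that of ATPsynF (316 CPM, 615 exonic bases). UQCR-14, listed at 0 in SE, stood at 931 and 921 TPM in the PE controls. Among the other genes UQCR-C1 (613) was highest in complex III and ATPsynC (2899) in complex V, followed there by ATPsynbeta (2088), in both tags. In complexes II and IV the order turned with the tag. SdhA was highest of complex II in PE controls (315 and 274) and SdhC in SE controls (308 and 340.3). COX7B was highest of complex IV in PE controls (1177 and 1084), and COX5A in SE controls (1739 and 1524). The complex II subunits, with median TPM of 220.0 to 308, lay below each complex V core gene except ATPsyndelta.

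The 18 L paralogs had mostly positive estimates. In the comparison of all 8 libraries edgeR called 0 of them lower and 0 higher, against 4.59% of all genes called higher; 2 (COX7CL and ATPsynepsilonL) had an unadjusted p below 0.05, DESeq2 called 1 higher (ATPsynepsilonL; 9.11% of all genes) and the replicate block 1 higher (COX7CL; 12.3% of all genes). Their median estimate was 0.92, from -0.65 to 1.36. The spread within each class was large because the paralogs followed the SE and PE tags. Between PE and SE controls 14 of the 18 were lower in PE (22.6% of all genes were) and 3 were higher (18.6% of all genes were), namely UQCR-11L, COX5BL and COX7AL2. Summed over the 18 paralogs, the level was 79.8 and 20.7 CPM in FRT19A, 93.7 and 17.8 in W1118, 104 and 82.9 in PointMut and 135.8 and 66.3 in DelMut. SE controls thus carried several times the paralog RNA of PE controls, and the mutant libraries of both tags were above the PE controls.

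The summed level of testis markers moved with the paralogs. Summed over 9 defining markers (bam, aly, can, dj, Mst84Db, Mst87F, ocn, janB and fzo), the level was 214 and 15.1 CPM in FRT19A, 265 and 10.8 in W1118, 284 and 207 in PointMut and 376.5 and 187 in DelMut. In W1118 PE, 2 of the 9, aly and can, were at 0. The markers bam and fzo did not show the large drop of the sum from SE to PE controls. Levels of bam were 0.109 and 0.169 CPM in FRT19A and 0.305 and 0.422 in W1118. Levels of fzo were 3.20 and 8.14 CPM in FRT19A and 8.17 and 6.20 in W1118. The gene fzo made up the largest part of the sums in PE controls. From the longer list of 30 tested testis and male germ line genes, 22 rose in PE mutants with a median of 4.58 (20.3% of all genes rose there), while in SE edgeR called 0 of 30 and the median was 0.51. The part of testis RNA in the paralogs' values was not tested.

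**Figure D3:**
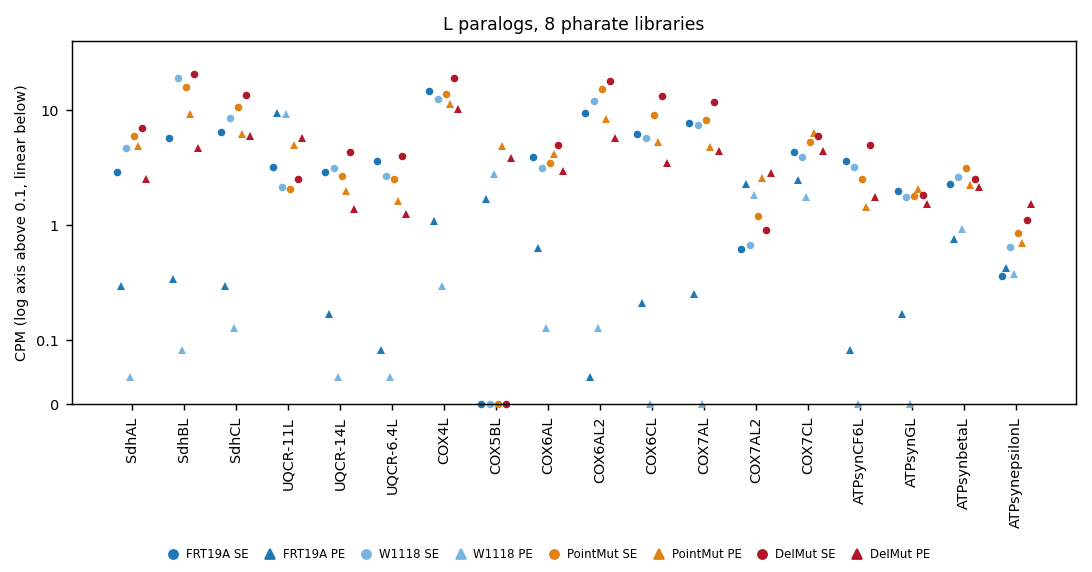
CPM of each of the 18 L paralogs in the 8 pharate libraries (circles SE, triangles PE; blue controls, orange PointMut, red DelMut), on an axis that is logarithmic above 0.1 and linear below. For most paralogs the PE controls are the lowest points, down to 0 for COX6CL, COX7AL, ATPsynCF6L and ATPsynGL in W1118; COX5BL is at 0 in all SE libraries, and UQCR-11L is highest in PE controls.

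Within PE libraries, 14 of the 18 paralogs rose in mutants (20.3% of all genes did), with a median of 4.14, and 17 were higher in both mutants than in both controls (39.6% of all genes were). Within SE, 0 were called in either direction by edgeR, none had an unadjusted p below 0.05, and the median was 0.33; 8 were higher in both mutants (29.9% of all genes were). The mutant effect differed between tags for 6 paralogs, larger in PE for each (5.81% of all genes were called so): SdhCL, UQCR-14L, UQCR-6.4L, COX4L, COX6AL2 and ATPsynCF6L. In the other direction 0 of the 48 were called (0.264% of all genes were). The call of the 6 paralogs rests on 2 libraries per class and tag. Most omissions of 1 library lowered the number called larger in PE. Omissions of a mutant library lowered it most, among the paralogs and among all genes.

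Among the complex II paralogs, SdhCL is the copy of the SdhC membrane anchor. It stood at 6.44 and 0.295 CPM in FRT19A, 8.50 and 0.126 in W1118, 10.7 and 6.15 in PointMut and 13.5 and 5.89 in DelMut. SE mutants were modestly above SE controls, and PE mutants were far above PE controls (0.70 ± 0.32 in SE, 4.80 ± 0.41 in PE; edgeR adjusted p of the difference = 0.0135). SdhAL, the flavoprotein copy, had 80 and 7 counts in FRT19A, 153 and 1 in W1118, 158 and 112 in PointMut and 192 and 55 in DelMut. SdhBL, the iron-sulfur copy, had 5.68 and 0.338 CPM in FRT19A and 18.95 and 0.0843 in W1118, against 4.65 to 20.5 CPM in mutants, so the SE control strains differed from each other. For both genes the PE effect was called (4.43 and 5.00) and the difference between tags was not (edgeR adjusted p = 0.0886 and 0.0733).

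In complex III, UQCR-14L had 2.87 and 0.169 CPM in FRT19A, 3.11 and 0.0422 in W1118, 2.66 and 1.98 in PointMut and 4.32 and 1.38 in DelMut, both PE controls below every other library. UQCR-6.4L had 3.64 and 0.0844 CPM in FRT19A, 2.68 and 0.0422 in W1118, 2.51 and 1.62 in PointMut and 3.95 and 1.24 in DelMut, again with the PE controls lowest. UQCR-11L was the exception among the paralogs. It stood at 3.20 and 9.37 CPM in FRT19A, 2.16 and 9.19 in W1118, 2.06 and 5.01 in PointMut and 2.52 and 5.71 in DelMut, highest in PE controls and lower in both PE mutants (57.7% of controls; -0.79 ± 0.27, edgeR adjusted p = 0.0618). UQCR-11, its partner without the L, was also highest in PE controls, and the TPM of UQCR-11L was 9.21% to 16.2% of the partner's in all 8 libraries.

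In complex IV, COX4L is the copy of COX4. It stood at 14.6 and 1.10 CPM in FRT19A, 12.5 and 0.295 in W1118, 13.8 and 11.3 in PointMut and 18.95 and 10.3 in DelMut, with PE mutants at 1548% of PE controls and SE mutants at 121% of SE controls. COX6AL2 showed the widest difference between tags: 9.50 and 0.0422 CPM in FRT19A, 12.1 and 0.126 in W1118, 15.2 and 8.34 in PointMut and 17.8 and 5.71 in DelMut (PE minus SE effect 5.69 ± 0.56, edgeR adjusted p = 0.0104). Part of it, 67.0% of exonic bases, overlaps an exon of Ir75d on the same strand, so its counts are uncertain. COX7AL had 7.75 and 0.253 CPM in FRT19A, 7.43 and 0 in W1118, 8.19 and 4.79 in PointMut and 11.7 and 4.42 in DelMut, and COX6CL and COX6AL had the same pattern with PE effects of 5.31 and 3.20. The difference between tags was not called for COX7AL (4.74 ± 1.05, edgeR adjusted p = 0.0551).

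The remaining complex IV paralogs stood apart. COX7CL had 4.29 and 2.49 CPM in FRT19A, 3.93 and 1.77 in W1118, 5.31 and 6.37 in PointMut and 5.93 and 4.42 in DelMut, so that each mutant library was above each control library, narrowly for DelMut PE; 2 of the 18 paralogs had this order, against 9.35% of all genes (0.82 ± 0.34, edgeR adjusted p = 0.176; with the replicate block 0.89, adjusted p = 0.0447). COX5BL was listed at 0 in all SE libraries and stood at 1.69 and 2.78 CPM in the PE controls and 4.87 and 3.82 in the PE mutants, and 100% of its exonic bases lie on opposite-strand exons of Trmt6. COX7AL2 stood at 0.619 to 1.20 CPM in SE and 1.81 to 2.85 CPM in PE libraries, with a PE effect of 0.41 ± 0.32 that was not called.

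The complex V paralogs ATPsynCF6L and ATPsynGL, copies of a peripheral stalk and a small membrane subunit, were at 0 in W1118 PE. ATPsynCF6L had 3.64 and 0.0844 CPM in FRT19A, 3.17 and 0 in W1118, 2.51 and 1.45 in PointMut and 5.01 and 1.75 in DelMut, and the effect differed between tags by 4.95 ± 1.04 (edgeR adjusted p = 0.0466). ATPsynGL stood at 0.169 and 0 CPM in the PE controls and at 1.52 to 2.06 CPM in the other 6 libraries. The catalytic copy ATPsynbetaL had 2.29 and 0.759 CPM in FRT19A, 2.62 and 0.927 in W1118, 3.14 and 2.24 in PointMut and 2.52 and 2.16 in DelMut, a smaller difference (PE effect 1.38 ± 0.30, edgeR adjusted p = 0.0155). ATPsynepsilonL, under 1 CPM on average, was at 0.364 to 0.640 CPM in controls and 0.703 to 1.52 CPM in mutants without overlap (edgeR adjusted p = 0.113).

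Of the 14 paralogs whose partner without the L is among the 48 genes, 5 lie on the same chromosome arm as the partner and 3 of these within 10 kb. COX5BL (chromosome 2L, 6559431 to 6560133, plus strand) starts 122 bases after COX5B (6557800 to 6559308), and COX7CL (chromosome 2R, 10050348 to 10050874, plus strand) starts 281 bases after COX7C (10048353 to 10050066). COX7AL (chromosome 3R, 8343669 to 8344310, plus strand) lies 2625 bases from COX7A (8339944 to 8341043, minus strand). The partner was lower and the paralog higher in both PE mutants than in both PE controls for 13 of the 14 pairs, all but UQCR-11 with UQCR-11L. That count follows from the 30 of 30 core genes lower in PE (36.3% of all genes) and the 17 of 18 paralogs higher (39.6% of all genes). It therefore says nothing about pairs or distance. COX7A is the partner of both COX7AL and COX7AL2. In the 3 close pairs, COX7C was at 60.9% and COX7CL at 253% of controls, COX7A at 62.8% and COX7AL at 3636%, and COX5B at 65.8% and COX5BL at 194.5%. The PE effect was called for each of these core genes and for COX7CL and COX7AL, and not for COX5BL (edgeR adjusted p = 0.165).

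For the 14 pairs, the paralog's TPM was at most 18.3% of its partner's in any of the 8 libraries, a value reached by UQCR-6.4L in DelMut SE; UQCR-14L has no such value in SE, where UQCR-14 is at 0. SdhCL had 3.93% and 5.86% of the TPM of SdhC in SE controls, 0.143% and 0.0618% in PE controls, and 6.32% to 16.4% in mutants. COX4L had 8.17% and 8.84% of COX4 in SE controls, 0.401% and 0.126% in PE controls, and 6.30% to 15.7% in mutants. ATPsynbetaL reached at most 0.234% of ATPsynbeta in any of the 8 libraries.

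The adult libraries were read to ask how the genes stood in the Hinfp2 mutant and in its rescues. There was 1 library per genotype, so no difference has a replicate check, and intervals cover counting error only (95%, exact Poisson for levels). All 30 core genes were more than 1.5-fold lower in Hinfp2 than in the control (25.0% of all genes at 1 CPM or more were), with log2 ratios of CPM + 1 from -1.71 to -0.72 and a median of -1.19. By complex the medians were -0.84 for complex II, -1.19 for III, -1.16 for IV and -1.19 for V. In the authors' deposited table the log2 fold changes of these 30 genes in this comparison ran from -1.73 to -0.73 with a median of -1.20.

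In the rescues most core genes stayed below the control. In the Hinfp rescue 27 of 30 were more than 1.5-fold lower than the control (16.2% of all genes were), with a median of -0.81, and in the His1 rescue 28 were (16.0% of all genes), with a median of -1.12. These 3 comparisons share the control library. Summed over the 30 core genes, the level was 19850 CPM in the control, 8659 in Hinfp2, 11360 in the Hinfp rescue and 9929 in the His1 rescue. Against Hinfp2, 4 core genes were more than 1.5-fold higher in the Hinfp rescue (18.0% of all genes were) and 2 in the His1 rescue (17.8% of all genes were), and 0 were lower in either. Visceral muscle genes summed to 13410 CPM in the control, 13910 in Hinfp2, 7214 in the Hinfp rescue and 8970 in the His1 rescue, and enterocyte and tubule markers to 10660, 9639, 28460 and 24060 CPM in the same order. The part of either list in the core values was not tested.

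**Figure D4:**
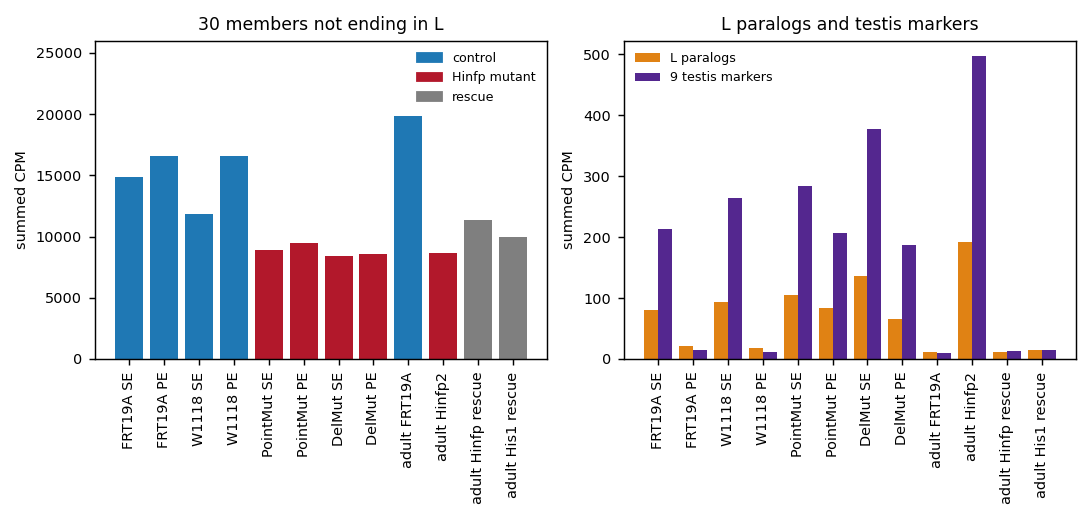
Summed CPM in the 12 libraries: left, the 30 core genes (blue controls, red Hinfp mutants, grey rescues); right, the 18 L paralogs (orange) and 9 testis markers (purple). The core sum is 11850 to 16580 in pharate controls and 8379 to 9511 in pharate mutants, and the paralog sum and the testis marker sum are highest in adult Hinfp2, at 192 and 497.

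Per gene, SdhC stood at 215 CPM (209 to 222) in the adult control, 85.5 (81.5 to 89.7) in Hinfp2, 114 (109 to 119) in the Hinfp rescue and 92.0 (87.6 to 96.6) in the His1 rescue. ATPsynC stood at 3661, 1367, 1980 and 1545 CPM in the same order. Both genes were lowest in Hinfp2, and their rescue values lay between mutant and control, nearer the mutant. SdhB was the least reduced core gene in Hinfp2, with 243 CPM in the control and 147 in the mutant, and stood at 188 and 169.7 in the rescues. Sdhaf3 stayed as low in the rescues, at 5.21 and 6.20 CPM, as in Hinfp2 (5.90), against 16.4 in the control.

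The shares of core genes past 1.5-fold between rescue and mutant were not above those of all genes, and the genes are named after their values were seen. UQCR-11 stood at 287 CPM in the control, 86.7 in Hinfp2, 161 in the Hinfp rescue and 204.5 in the His1 rescue, which is 1.86-fold (1.75 to 1.98) and 2.36-fold (2.23 to 2.5) over the mutant. UQCR-14 was 1.71-fold and 1.89-fold over it. COX7A (1.71-fold) and COX8 (1.69-fold) passed the limit in the Hinfp rescue, and their ratios in the His1 rescue were 1.22 and 1.21. UQCR-Q went the other way in the His1 rescue, at 54.3 CPM against 73.3 in Hinfp2 (0.740-fold, 0.682 to 0.803).

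**Figure D5:**
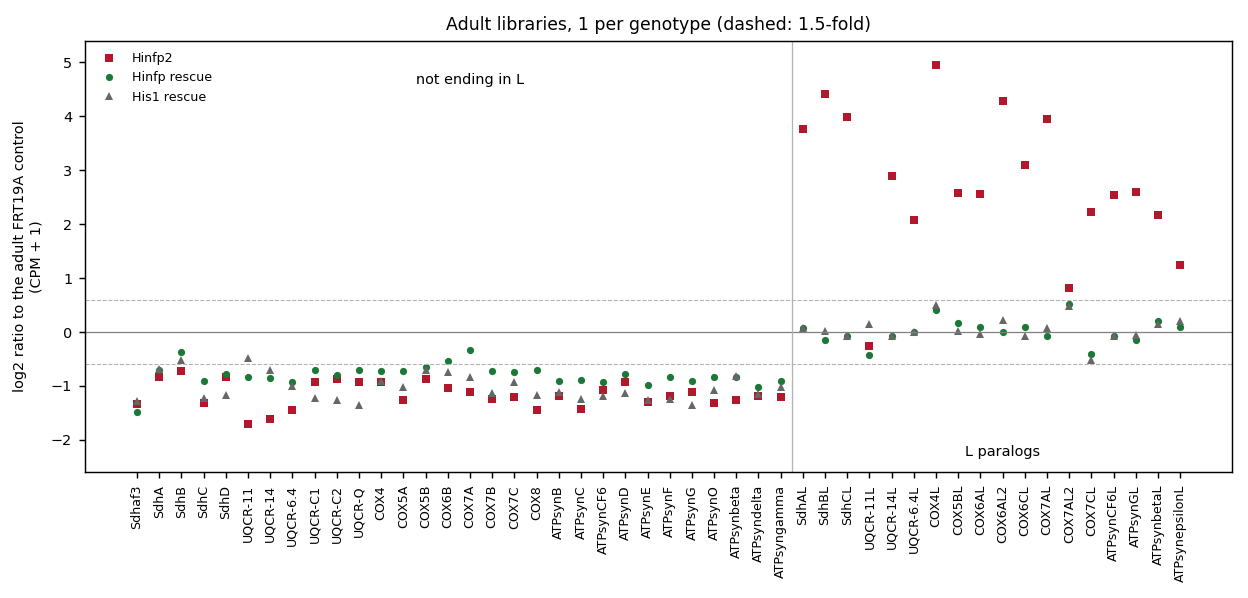
Log2 ratio of CPM + 1 to the adult FRT19A control for all 48 genes in Hinfp2 (red squares), the Hinfp rescue (green circles) and the His1 rescue (grey triangles), 1 library each, with dashed lines at 1.5-fold. All 30 core genes lie below the lower line in Hinfp2, and 17 of 18 L paralogs lie above the upper line in Hinfp2 and between the lines in both rescues, as does UQCR-11L in all genotypes.

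Of the 18 paralogs, 17 were more than 1.5-fold higher in adult Hinfp2 than in the control (31.9% of all genes were), with a median of 2.59 on the log2 scale of CPM + 1, which understates low genes. UQCR-11L was again the exception, with 131 counts in the control and 111 in Hinfp2. In each rescue 16 of 18 were more than 1.5-fold lower than in Hinfp2 (28.8% and 28.3% of all genes), and against the control 0 of 18 were past 1.5-fold higher in either rescue (13.4% and 14.0% of all genes were). With the added 1 CPM, paralogs near 0 CPM in the control could hardly pass that limit, so the count does not show a return to the control level. COX7AL2 had 24 counts in the control and 38 in each rescue, a ratio of 1.77 (1.04 to 3.09) in the Hinfp rescue and 1.72 (1.01 to 3.01) in the His1 rescue. COX4L had 2 counts in the control, 665 in Hinfp2, 8 in the Hinfp rescue and 10 in the His1 rescue. The ratio to the control was 319 (87.9 to 2640) in the mutant, 4.48 (0.894 to 43.3) in the Hinfp rescue and 5.45 (1.16 to 51.1) in the His1 rescue. SdhAL had 0, 254, 1 and 1 counts, at least 81.1-fold higher in the mutant against a floor of 3 counts in the control library, and UQCR-6.4L had 0, 65, 0 and 0 counts, at least 20.8-fold higher. COX5BL, listed at 0 in pharate SE libraries, had 19, 218, 21 and 18 counts in the adult set. The 9 testis markers summed to 9.36 CPM in the control, 497 in Hinfp2, 13.1 in the Hinfp rescue and 14.8 in the His1 rescue, with aly and can at 0 in the control. The gene fzo alone stood at 6.72, 14.7, 12.05 and 12.7 CPM in the same order, so it made up most of the sums outside Hinfp2. The paralogs summed to 12.2, 192, 11.2 and 14.0 CPM. The part of testis RNA in the adult paralog values was not tested.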

How the data were processed

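RNA-seq of 8 pharate and 4 adult libraries was analysed from the authors' deposited gene counts, whole numbers used without change. Per the submitters' processing notes, which give no roles, pharate reads went through featureCounts 1.5.2 and STAR 2.5.3a with BDGP6 and dm6. For adult reads the notes name featureCounts 1.6.2, DESeq2, edgeR 3.28.1, STAR 2.5.3a, Bowtie2 2.3.5 and Trimmomatic 0.39. Strand setting and treatment of multiply matched reads: not given in the sources used here. Per the labels, the extract protocol describes poly-A selection, whereas ribosomal RNA depletion is named in the design text. The authors' deposited TPM and FPKM served only to compare levels between genes, and the authors' deposited log2 fold changes only for adult genotypes. Another 104 columns of per-sample values were not used. Symbols were matched by FlyBase ID (16403 of 16524 rows, 7 members under other names), and coordinates come from Ensembl release 115 of BDGP6.

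Tests of the counts used the quasi-likelihood method of edgeR 4.0.16 (R 4.3.3, two-sided, filterByExpr with a minimum count of 10, TMM, Benjamini-Hochberg over all 13244 genes tested, threshold 0.05): mutants against controls as 2 classes, 4 groups in 1 fit, and class by tag with its interaction. Standard errors were derived from the log2 fold change and its F statistic. The script was tested on simulated data. DESeq2 1.42.0 was an alternative. Same-numbered libraries deviated together from their group means (correlation across genes of 0.651 to 0.851 over the 6 pairs of groups), and the number carries the SE or PE tag. The replicate block takes equal numbers as pairs. The main fits of 2 classes and of 4 groups do not, so their p-values ignore this pairing. Adult ratios used TMM-scaled CPM plus a pseudocount of 1, with a limit of 1.5-fold among 11819 genes of at least 1 CPM in any adult library. Named genes were, per complex, the 2 core genes with the smallest adjusted p, the highest in TPM and the one nearest 0, the paralogs of at least 1 CPM, and the 3 with the widest difference between tags; others are marked. Members and lists were chosen with earlier results of these data known.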

Additional observations from a re-analysis of the deposited data

Results flagged for a closer look

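The mutant effect differed between the PE and SE libraries for 6 L paralogs by the edgeR test of that difference, larger in PE each time: SdhCL by 4.11, UQCR-14L by 3.71, UQCR-6.4L by 4.37, COX4L by 3.67, COX6AL2 by 5.69 and ATPsynCF6L by 4.95 on the log2 scale. PE controls held the lowest levels of these paralogs, and the 9 testis markers summed to 15.1 and 10.8 CPM there against 214 and 265 in SE controls, whose part in these differences was not tested. Among core genes, ATPsynCF6 had 1 control library set below the other 3, W1118 replicate 1 at 297 CPM. ATPsynD had 1 mutant library set above the other 3, PointMut replicate 2 at 309 CPM. Chance sets apart about 1 in 20 groups in this way. Neither flag takes the tag into account. In W1118 replicate 1 the core genes with a value all stood at 79.7% to 94.2% of the SE control mean. Against controls of the same tag, ATPsynD was at 73.4% and 71.0% in PointMut and 71.1% and 58.7% in DelMut (SE, PE).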

How the results depend on the processing

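With the replicate block, which pairs the libraries by number, 28 members were called lower and 1 higher in mutants against controls, 23 lower in DelMut and 12 in PointMut against FRT19A; the counts for W1118 against FRT19A and DelMut against PointMut stayed at 0. DESeq2 called 18 lower (all core genes, with 1562 of all 13244 genes lower) and 1 higher in mutants against controls. Against FRT19A it called 10 lower in DelMut and 8 in PointMut. From the SE libraries alone 0 were lower, as were 0 of all 12474 genes. From the PE libraries alone 29 were lower (28 core genes and 1 L paralog) and 14 higher, all L paralogs. Over all 12308 genes that PE fit called 2078 lower and 2797 higher. With the spread shared between tags, an alternative chosen after seeing the data, PE gave 27 lower and 14 higher. Leaving out 1 library at a time gave 3 to 16 members lower in mutants against controls, and 0 to 11 higher and 0 to 1 lower for the difference between tags. ATPsynGL reversed in SE, to -0.06 alone and -0.04 with shared spread, from 0.88. RLE size factors, library totals and no filter on low counts gave 13, 14 and 12 lower against 13, but UQCR-14L and ATPsynCF6L lost the call of a difference between tags under each of the 3, as did SdhD and ATPsynF their call of a fall under library totals and COX7B without the filter; ATPsynD, ATPsynG and ATPsyngamma gained one under library totals. Adult counts past 1.5-fold stayed within 1.5 times under each alternative run. With 1 library per tag and group, and few counts of many paralogs in PE controls, small differences were not detectable.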
